A study of Mus musculus with 6 samples.

Results

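Committed oligodendrocyte precursors are the glia between the dividing oligodendrocyte precursor cell (OPC) and the myelinating oligodendrocyte, and 8 genes known for that step were followed here in nuclei from mouse brain lesions driven by the transcription factor Foxr2. The genes were Enpp6, Gpr17, Bcas1, Bmp4, Itpr2, Fyn, 9630013A20Rik and Moxd1. They were found by symbol among the 32285 genes of the 2 libraries whose counts were analysed, and all 8 were present in both. The lesions were made in C57BL/6J mice by in utero electroporation of the embryonic ganglionic eminences, with piggyBac vectors in which the ubiquitous CAG promoter drives Foxr2 and green fluorescent protein (GFP). The Foxr2 p53LOF group also lost p53 function through Cas9 and a guide RNA against it, while the Foxr2 alone group carried the overexpression without that loss. Whether the Foxr2 alone group received Cas9 with a control guide is not given in the sources used here. The authors describe killing the mice after birth, once neurologic symptoms showed. The age of the profiled animals at that time is not given in the sources used here. RNA and chromatin accessibility (ATAC) were read from the same nuclei with the 10x Multiome assay in 1 Foxr2 p53LOF library and 2 Foxr2 alone libraries. Counts came from Foxr2 p53LOF and Foxr2 alone replicate 1. Foxr2 alone replicate 2 entered only through its list of peaks and its barcodes. Since the counts of 1 library per genotype were analysed, no test between groups was made, and genotype, animal and library cannot be told apart in the comparisons of the 2.

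An OPC that leaves the cell cycle to differentiate passes through a short committed stage, in which precursor genes such as Pdgfra are shut off before the myelin genes reach their full level. Gpr17, a G protein-coupled receptor, marks this stage and is known to hold back maturation, while Enpp6, a choline-releasing phosphodiesterase, and Bcas1, a myelin-associated protein, mark newly forming and early myelinating oligodendrocytes. Bmp4 is a secreted ligand of the bone morphogenetic protein (BMP) pathway, Itpr2 a calcium release channel of the endoplasmic reticulum, Fyn a Src family kinase of myelination, 9630013A20Rik a long noncoding RNA and Moxd1 a copper-dependent monooxygenase of little known function. Hmga2, a chromatin protein of fetal stem cells, and Mki67, a gene of dividing cells, were the partners for co-detection.

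The upstream sequences of Enpp6, Bmp4 and 9630013A20Rik are shown because their promoters were more accessible in 1 cluster of Foxr2 p53LOF nuclei than in its nearest counterpart, as described later, and that of Moxd1 because its RNA went its own way among the 8. Each is the 250 bases before the start site, 5′ to 3′ on the gene's strand, from RefSeq on GRCm38.p6 (the assembly of mm10), with motif matches in capitals. Enpp6 is at chr8:46986637-46986886 (plus strand), Bmp4 at chr14:46390670-46390919 (minus strand), 9630013A20Rik at chr14:84476425-84476674 (minus strand) and Moxd1 at chr10:24223267-24223516 (plus strand).
Enpp6: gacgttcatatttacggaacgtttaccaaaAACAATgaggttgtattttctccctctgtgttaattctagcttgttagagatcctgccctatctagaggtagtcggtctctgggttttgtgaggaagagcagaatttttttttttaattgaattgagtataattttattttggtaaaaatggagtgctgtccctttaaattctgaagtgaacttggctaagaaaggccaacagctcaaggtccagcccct
Bmp4: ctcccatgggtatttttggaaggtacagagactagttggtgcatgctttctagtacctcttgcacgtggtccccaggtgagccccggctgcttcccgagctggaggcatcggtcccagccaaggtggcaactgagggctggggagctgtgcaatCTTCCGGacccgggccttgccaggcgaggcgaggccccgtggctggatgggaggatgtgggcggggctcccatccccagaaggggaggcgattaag
9630013A20Rik: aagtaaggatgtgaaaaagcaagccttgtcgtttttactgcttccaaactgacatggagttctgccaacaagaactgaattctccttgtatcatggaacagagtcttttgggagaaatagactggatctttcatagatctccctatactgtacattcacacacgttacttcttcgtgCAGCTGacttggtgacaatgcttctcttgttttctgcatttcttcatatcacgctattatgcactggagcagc
Moxd1: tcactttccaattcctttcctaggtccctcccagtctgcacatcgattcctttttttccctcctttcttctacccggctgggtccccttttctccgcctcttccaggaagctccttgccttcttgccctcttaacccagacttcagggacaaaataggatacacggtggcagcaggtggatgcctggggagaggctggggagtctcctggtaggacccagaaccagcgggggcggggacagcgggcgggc
Motifs of 4 factor families were searched on both strands: CAGCTG for basic helix-loop-helix factors, AACAAT for SOX factors, TGTTTAC for forkhead factors and CCGGAAG for ETS factors. The Enpp6 window held 1 AACAAT, a motif present in 9.42% of all 32851 promoters of this length. The Bmp4 window held 1 CCGGAAG on the opposite strand (6.91% of promoters), and that of 9630013A20Rik held 1 CAGCTG, which reads alike on both strands (13.0% of promoters). TGTTTAC (3.17% of promoters) was in none of the 6 member windows used, and Moxd1, Itpr2 and Fyn held none of the 4 motifs. The RefSeq table matched 6 of the 8 members, all but Gpr17 and Bcas1. A match is a description of letters and not a binding site.

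In mm10, Enpp6 (ENSMUSG00000038173) lies on chromosome 8 from 46986887 to 47096762 and Bcas1 (ENSMUSG00000013523) on chromosome 2 from 170346991 to 170427845. Bmp4 (ENSMUSG00000021835) lies on chromosome 14 from 46383520 to 46390669, Itpr2 (ENSMUSG00000030287) on chromosome 6 from 146108299 to 146502223, and Fyn (ENSMUSG00000019843) on chromosome 10 from 39368855 to 39565381. Moxd1 (ENSMUSG00000020000) is on chromosome 10 from 24223517 to 24302790, and Gpr17 (ENSMUSG00000052229) is on chromosome 18. The gene 9630013A20Rik (ENSMUSG00000115529), on chromosome 14 from 84458639 to 84476424, is annotated as antisense and overlaps Pcdh17 on the other strand. Gpr17 overlaps Lims2, and Bcas1 overlaps Bcas1os1 and Bcas1os2, in the same way. Whether the counting used the strand is not given in the sources used here, and Enpp6, Bmp4, Itpr2 and Fyn also overlap annotated genes on the other strand, so the values of these 7 members, all but Moxd1, carry that uncertainty. In cluster 6, the nuclei in which 9630013A20Rik was highest, it had 5511 unique molecular identifiers (UMIs, 1 per RNA molecule counted) and Pcdh17 had 3391. Pcdh17 stood at 320 counts per 1000000 UMIs (CPM) there and at 335 CPM in OPC-like nuclei of the same library, where 9630013A20Rik stood at 36.2 CPM. In cluster 6 Lims2 had 77 UMIs beside 229 of Gpr17, and Bcas1os1 and Bcas1os2 had 29 and 475 beside 17212 of Bcas1. Gm15222 had 70 beside 603 of Bmp4.

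The Foxr2 p53LOF library held 10379 barcodes with 96929539 UMIs and the Foxr2 alone library 10096 barcodes with 59719847 UMIs. After filters, 8359 and 8316 nuclei remained, with medians of 5527 and 3637 UMIs. The 2 libraries shared 140 barcodes, and 34 and 19 barcodes were shared with Foxr2 alone replicate 2. Clustering without the 8 genes gave 26 clusters. Cluster 16, OPC-like, with 96 and 169 nuclei, and cluster 24, with 60 and 25, drew on both libraries, and the others came almost wholly from 1 library. Over all kept nuclei the level of Foxr2 was 42.6 CPM for Foxr2 p53LOF against 3.61 CPM for Foxr2 alone, and vector GFP was at 324 and 29.0 CPM. Trp53, the target of the guide, was at 33.6 and 12.9 CPM; a cut gene can still be transcribed, so its RNA does not check the edit.

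The RNA of these genes was concentrated in 1 cluster of Foxr2 p53LOF nuclei, cluster 6, with 934 nuclei from this library and 1 from Foxr2 alone. It held 11.2% of the kept Foxr2 p53LOF nuclei, and its summed level over the 8 genes, 3844 CPM, was the highest of all clusters; it was singled out for that, so its high levels are a description. Next came the OPC-like nuclei of cluster 16, with 2532 CPM for Foxr2 p53LOF against 1928 CPM for Foxr2 alone. The 10 leading genes of cluster 6 by fold were Hmga2, Gbp2, Gm4951, Iigp1, Sox6, Gbp4, Tnc, Rsad2, Tgfbi and Nlrc5, among them the interferon-induced genes Gbp2, Gm4951, Iigp1, Gbp4, Rsad2 and Nlrc5. Marker lists were scored by how far, in log2 CPM, a cluster stood above the lower quartile of all clusters. In cluster 6 all 8 markers of each of 3 lists, for OPCs, committed precursors (a list without the 8 genes) and oligodendrocytes, were at least 2-fold above it, with list medians of 3.78, 3.61 and 4.41, beside 5 of 8 astrocyte (median 2.22), 5 of 8 neuron (1.25) and 6 of 8 immune markers (1.94). These 3 glial lists lay within 1 of each other and 0 of their markers were among the 10 leading genes. The cluster was therefore called mixed glia-like and is given by number. All 3 lists are of the oligodendrocyte lineage, so for cluster 6 the name stands for mixed stages of that lineage. The astrocyte list scored lower. Sox6, a transcription factor of OPCs that was not on the naming lists, was a leading gene, at 1559 CPM in cluster 6, 1872 CPM in OPC-like and 31.9 CPM in oligodendrocyte-like nuclei of the same library. The committed precursor markers summed to 766 CPM there, against 642 and 702 CPM in OPC-like nuclei of Foxr2 p53LOF and Foxr2 alone and 253 CPM in oligodendrocyte-like nuclei of Foxr2 p53LOF. Apart from the 8 genes themselves, this marker list did not set cluster 6 apart from OPC-like nuclei. Astrocyte markers summed to 412, neuron markers to 559 and immune markers to 196 CPM, with 0 markers of these lists undetected, and their part in the levels of the 8 genes was not tested. GFP stood at 658 CPM in cluster 6, at 571 CPM in cluster 3, a second mixed glia-like cluster of 1143 Foxr2 p53LOF nuclei with OPC and astrocyte markers, and at 79.5 CPM in neuron-like nuclei.

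Of the 8 genes, 5 had their highest level over all clusters of both libraries in cluster 6. Intervals in parentheses are exact 95% Poisson intervals, which cover counting error only and are too narrow for the variation between nuclei or animals. Enpp6 was at 402 CPM (390 to 414) in cluster 6, 152 CPM in the next cluster, the oligodendrocyte-like cluster 2 of Foxr2 p53LOF, 27.1 CPM in OPC-like nuclei and 4.98 CPM in neuron-like nuclei of that library. Bcas1 was at 1623 CPM (1598 to 1647) in cluster 6, 968 CPM in oligodendrocyte-like, 835 CPM in OPC-like and 17.4 CPM in neuron-like nuclei. Both of these genes of newly forming oligodendrocytes were thus also present in oligodendrocyte-like nuclei, with Bcas1 spread more evenly over the lineage. Bmp4 was at 56.8 CPM (52.4 to 61.6) in cluster 6 and no higher than 3.01 CPM in the OPC-like, oligodendrocyte-like, astrocyte-like, immune-like and neuron-like nuclei of the library. Its next level, 30.3 CPM in cluster 24, an unnamed cluster led by Slco1a4, Adgrl4 and Ctla2a, rested on 60 nuclei and its interval overlapped that of cluster 6. The noncoding RNA 9630013A20Rik showed the sharpest contrast of the 8 between its first and second cluster, 520 CPM (506 to 533) in cluster 6 against 46.8 CPM in cluster 21, 11.1-fold. Moxd1 was at 204 CPM (196 to 213) in cluster 6 and at 148 CPM (134 to 164) in cluster 14 of Foxr2 alone, neuron-like nuclei led by the interneuron genes Sst and Npy, and it was at 0 UMIs in OPC-like nuclei of both libraries.

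The other 3 genes peaked elsewhere. Gpr17 was highest in OPC-like nuclei of Foxr2 p53LOF, at 142 CPM (104 to 188), followed by OPC-like nuclei of Foxr2 alone at 28.3 CPM (15.05 to 48.33) and cluster 6 at 21.6 CPM (18.9 to 24.6), and the last 2 intervals overlapped. Itpr2 was also highest in OPC-like nuclei of Foxr2 p53LOF, at 925 CPM (825 to 1035), and stood at 611 CPM in cluster 9, immune-like. Cluster 6, at 448 CPM (435 to 461), and OPC-like nuclei of Foxr2 alone, at 435 CPM, followed and did not differ in Itpr2 beyond their intervals. Fyn, which lymphocytes and neurons also express, was highest in cluster 19, an unnamed cluster led by Cd74 and H2-Ab1, at 667 CPM (598 to 742). Fyn stood at 570 CPM in cluster 6 and 564 CPM in OPC-like nuclei, with overlapping intervals, and at 153 CPM in neuron-like nuclei. Counted as UMIs rather than CPM, cluster 6 held 93.4% of all 9630013A20Rik UMIs of the library, 86.8% of those of Bmp4, 78.0% of Enpp6, 71.3% of Moxd1, 66.8% of Bcas1, 65.2% of Gpr17, 45.4% of Itpr2 and 38.6% of Fyn. These nuclei were deep, with a median of 9577 UMIs against 5527 over the library, so their share of all UMIs exceeded their 11.2% of nuclei.

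**Figure D1:**
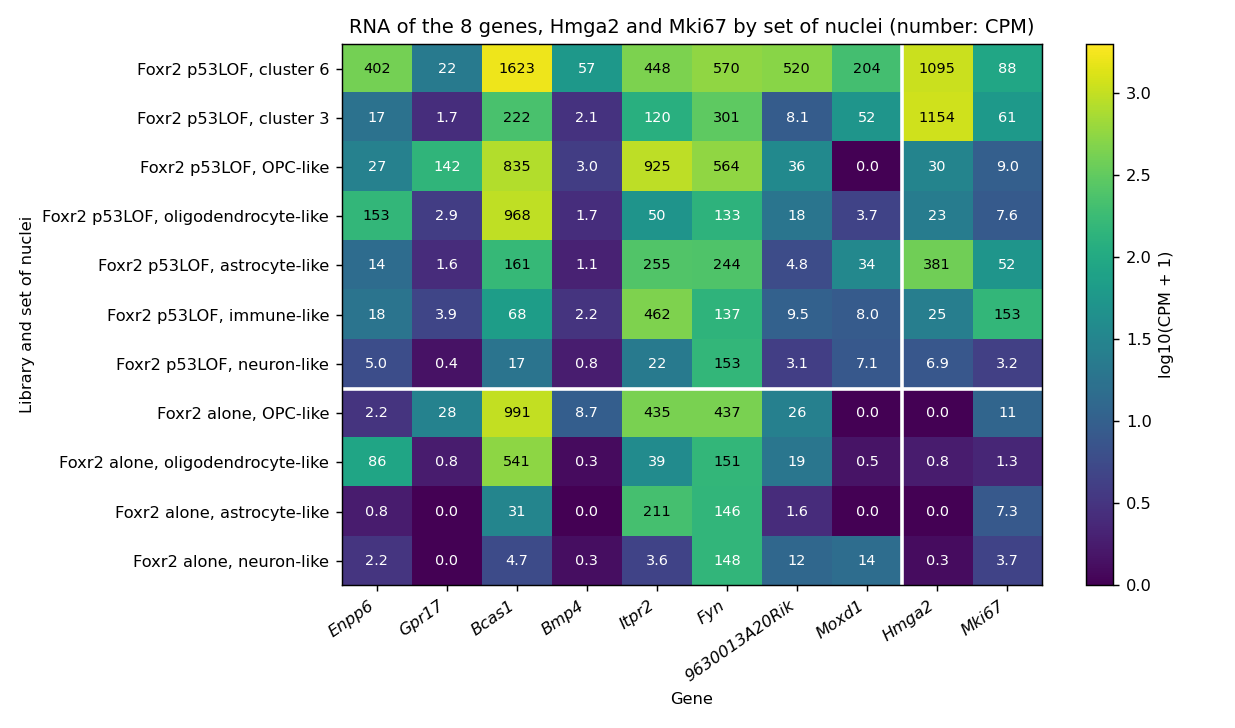
Heat map of RNA level (colour: log10(CPM + 1), number in each cell: CPM) of the 8 genes, Hmga2 and Mki67 (columns) in cluster 6, cluster 3 and the named classes of both libraries (rows). Enpp6, Bcas1, Bmp4, 9630013A20Rik and Moxd1 are highest in cluster 6 of Foxr2 p53LOF among the sets drawn, Gpr17 and Itpr2 are highest in its OPC-like nuclei, and Fyn is alike in both, at 570 and 564 CPM.

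Against the more mature oligodendrocyte-like nuclei of Foxr2 p53LOF, 7 of the 8 genes were at least 2-fold higher in cluster 6, and 26.2% of all 10285 genes with 10 CPM in either set were that much higher and 9.73% that much lower. On the log2(CPM + 1) scale the median difference of the 8 was 2.83, beside 0.41 over all those genes. Cluster 6 was chosen for the summed level of these 8 genes, so the member counts and median in this paragraph are descriptions. Gpr17, Bmp4 and Moxd1 reached 10 CPM in this comparison only in cluster 6. The ratios of single genes that follow are of CPM without the added 1. The differences were largest for Moxd1 (204 against 3.66 CPM, log2 ratio 5.80), Bmp4 (56.8 against 1.71 CPM, 5.06) and 9630013A20Rik (520 against 18.3 CPM, 4.83), and smallest for Bcas1 (0.74), which did not reach 2-fold. Against OPC-like nuclei, where 26.3% of 10777 genes were 2-fold higher and 14.7% lower, the members split. Enpp6 (log2 ratio 3.89), Bmp4 (4.24, on 1 UMI in the OPC-like nuclei), 9630013A20Rik (3.84) and Moxd1 (0 UMIs in the OPC-like nuclei, lower 95% limit 4.20) were higher in cluster 6. Gpr17 (−2.71) and Itpr2 (−1.05) were lower. Fyn was level there, with a log2 ratio of 0.02 (95% interval −0.19 to 0.23). Against cluster 3, where 9.43% of 10492 genes were 2-fold higher and 9.41% lower, 7 of the 8 were higher, led by 9630013A20Rik (520 against 8.13 CPM, log2 ratio 6.00), and Fyn missed 2-fold at 0.92. Against neuron-like nuclei all 8 were higher, where 28.9% of 11118 genes were higher and 18.4% lower. Against immune-like nuclei, where 22.4% of 10883 genes were higher and 17.4% lower, 7 were higher, and Itpr2 was level at 448 against 462 CPM. Hmga2 was alike in these 2 clusters, at 1095 CPM in cluster 6 and 1154 CPM in cluster 3, and both had Mki67, at 88.2 and 60.7 CPM.

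Other genes of the lineage, taken from set lists, place these levels. Of 8 OPC-stage genes, 6 were 2-fold lower and 0 higher in cluster 6 than in OPC-like nuclei, Pdgfra at 157 against 1218 CPM and Cspg4 at 25.4 against 552 CPM, while 5 were higher and 1 lower than in oligodendrocyte-like nuclei. Of 8 myelin genes, 6 were lower and 0 higher in cluster 6 than in oligodendrocyte-like nuclei, Mog at 129 against 1226 CPM, and 5 were higher and 0 lower than in OPC-like nuclei, Mbp at 2384 against 335 CPM. Relative to cluster 3, all 8 myelin genes were higher. Most OPC-stage and myelin genes thus lay in cluster 6 between their levels in the OPC-like and oligodendrocyte-like nuclei. Among 8 regulators of differentiation, Myrf, the driver of myelin gene transcription, was at 36.2 CPM in OPC-like nuclei, 129 CPM in cluster 6 and 323 CPM in oligodendrocyte-like nuclei, and Nkx2-2 was at 133 CPM in cluster 6, 93.4 CPM in OPC-like nuclei, with overlapping intervals, and 38.8 CPM in oligodendrocyte-like nuclei. Of these 8 regulators, 2 were 2-fold higher and 2 lower in cluster 6 than in oligodendrocyte-like nuclei, and 3 were higher and 1 lower than in OPC-like nuclei. Over all genes these shares were 26.2% and 9.73%, and 26.3% and 14.7%. The count higher than in oligodendrocyte-like nuclei was thus at the share of all genes. Of 8 inhibitors of differentiation, 6 could be compared with oligodendrocyte-like nuclei and 4 of them were higher, Sox5 at 598 against 20.2 CPM, and against OPC-like nuclei 0 of 7 were higher and 1 was lower.

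The BMP pathway was followed beside Bmp4 in a list of 10 genes. Bmp2, the closest relative of Bmp4, was at 95.5 CPM (89.7 to 102) in cluster 6, 10.0 CPM in oligodendrocyte-like nuclei, 6.15 CPM in cluster 3 and 3.01 CPM (1 UMI) in OPC-like nuclei. Of the 7 genes of this list that could be compared with oligodendrocyte-like nuclei, 2 were 2-fold higher in cluster 6 (Bmp2 and the signal transducer Smad5) and 0 lower, near the 26.2% and 9.73% of all genes, with a median difference of 0.63 in log2(CPM + 1) beside 0.41 for all genes. Id3, a target of the pathway, was at 33.6 CPM in cluster 6 and 74.4 CPM in cluster 3, and the receptor gene Bmpr1b, from the list of inhibitors, was at 31.4 and 402 CPM. Against cluster 3, 1 of 7 was higher (Bmp2) and 3 were lower (Smad1, Id1 and Id3), where 9.43% and 9.41% of all genes were. The ligands Bmp4 and Bmp2 were thus high in cluster 6 without a like difference in the rest of the list.

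Between the libraries, the genes could be compared only within named classes, and each class except the OPC-like one rests on different clusters (oligodendrocyte-like on cluster 2 in Foxr2 p53LOF and cluster 0 in Foxr2 alone, astrocyte-like on clusters 18 and 12, neuron-like on clusters 1 and 17 and on clusters 4, 5, 8, 10, 13, 14, 22 and 23). In OPC-like nuclei, where 10.9% of 10828 genes were at least 2-fold higher in Foxr2 p53LOF and 23.7% lower, Gpr17 was at 142 against 28.3 CPM (log2 ratio 2.33, 95% interval 1.42 to 3.34) and Itpr2 at 925 against 435 CPM (1.09, 0.83 to 1.35). Lims2, which overlaps Gpr17 on the other strand, was at 75.4 against 15.2 CPM there (25 against 7 UMIs). Its part in the Gpr17 ratio was not tested. Enpp6 was also past 2-fold there, on 9 against 1 UMIs. Hmga2, the leading gene of cluster 6, stood at 10 against 0 UMIs in the same nuclei, and its part in these ratios was not tested. Bcas1 (835 against 991 CPM), Fyn (564 against 437 CPM) and 9630013A20Rik (36.2 against 26.1 CPM) were within 2-fold, so 3 of the 6 genes that could be compared were higher and 0 lower. In oligodendrocyte-like nuclei 0 of 5 passed 2-fold in either direction, where 12.7% of 9709 genes were higher and 19.6% lower. Enpp6 was at 153 against 86.1 CPM there (log2 ratio 0.83, 0.63 to 1.02) and Bcas1 at 968 against 541 CPM (0.84, 0.76 to 0.92), while 9630013A20Rik was at 18.3 against 18.5 CPM. Median depth differed between these nuclei, 2456.5 against 1172 UMIs, and its part in the ratios was not tested.

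In astrocyte-like nuclei, 24.4% of 11685 genes were higher in Foxr2 p53LOF and 21.5% lower, and 3 of the 5 members compared were higher. Bcas1 was at 161 against 30.7 CPM (log2 ratio 2.39) and Enpp6 at 13.9 against 0.807 CPM (26 against 1 UMIs). Moxd1 was at 34.1 CPM (26.3 to 43.6) against 0 UMIs, whose interval reached 2.98 CPM. With minimums of 1000 genes and 1000 fragments per nucleus, the ratio of Moxd1 dropped to 0.46 on the log2 scale. Hmga2 was at 381 CPM in these nuclei of Foxr2 p53LOF and at 0 UMIs in those of Foxr2 alone, and immune markers summed to 1264 and 120 CPM; their part in these ratios was not tested. In neuron-like nuclei, where 12.5% of 10599 genes were higher and 18.0% lower, Bcas1 (17.4 against 4.71 CPM) and Itpr2 (22.1 against 3.63 CPM) were higher and 9630013A20Rik was lower (3.11 against 11.5 CPM, log2 ratio −1.89). The neuron-like clusters of Foxr2 alone differed among themselves for 9630013A20Rik, from 19.9 CPM in cluster 5 and 17.2 CPM in cluster 4 down to 3.82 CPM in cluster 8, whose interval (2.60 to 5.42) overlapped that of cluster 1 of Foxr2 p53LOF (3.26 CPM, 2.52 to 4.15). The part of which neuron clusters each library held in this ratio was not tested. Fyn was at 153 against 148 CPM in them (log2 ratio 0.05, −0.01 to 0.11) and Moxd1 at 7.12 against 14.0 CPM, neither past 2-fold, and 386 of the 463 Moxd1 UMIs of Foxr2 alone were in cluster 14. Hmga2 was at 6.89 against 0.272 CPM in these nuclei and Top2a at 7.56 against 0.212 CPM, and their part in the differences was not tested.

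**Figure D2:**
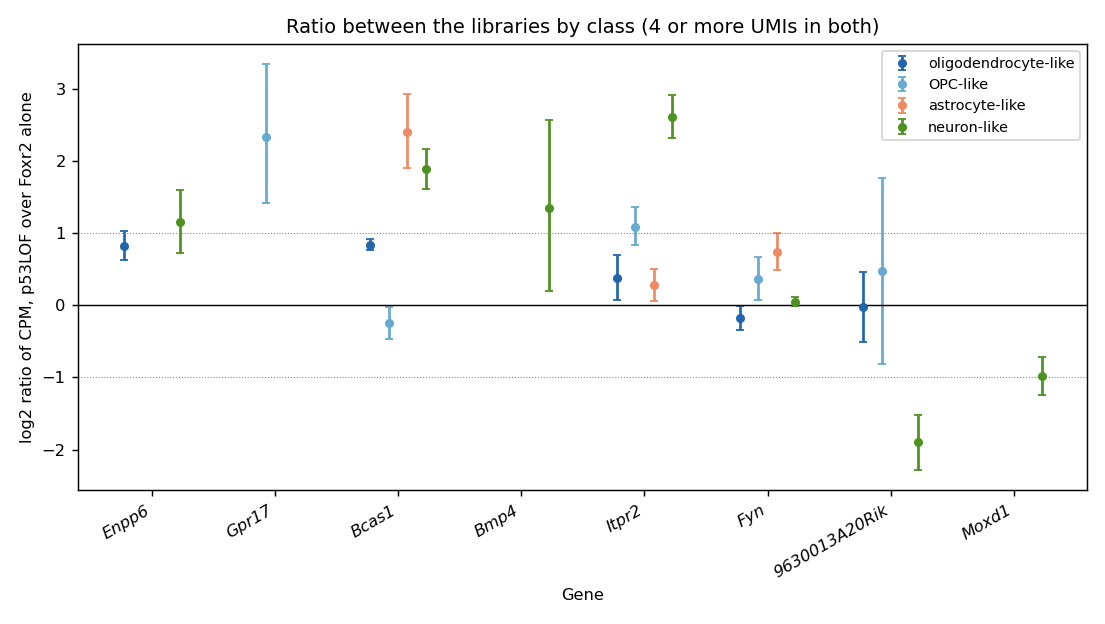
Log2 ratio of RNA level, Foxr2 p53LOF over Foxr2 alone, for each gene with at least 4 UMIs in both libraries, by class (colours), with exact 95% conditional intervals that cover counting error only; dotted lines mark 2-fold. Gpr17 is past 2-fold in OPC-like nuclei, Itpr2 in OPC-like and neuron-like nuclei, and Bcas1 in astrocyte-like and neuron-like nuclei. In neuron-like nuclei 9630013A20Rik lies at −1.89.

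Single nuclei were compared after each was thinned to 1000 UMIs, which left out 134 Foxr2 p53LOF and 1084 Foxr2 alone nuclei. In cluster 6, a UMI of Bcas1 was seen in 56.4% of 934 nuclei, of Fyn in 36.8%, of Enpp6 in 27.7%, of 9630013A20Rik in 23.9%, of Itpr2 in 22.4%, of Moxd1 in 11.3%, of Bmp4 in 6.53% and of Gpr17 in 1.93%. In 2079 neuron-like nuclei of the same library, which should lack most of these genes, the shares were 1.30% for Bcas1, 0.625% for Enpp6, 0.433% for 9630013A20Rik, 1.73% for Itpr2, 0.818% for Moxd1, 0.0481% for Gpr17 and 0 for Bmp4 (0 of 2079 nuclei, which at this depth allows a share of up to 0.144% with a UMI; with all UMIs it was 0.914%), but 13.6% for Fyn. The median depth before thinning was 9577 UMIs in cluster 6 and 9702 UMIs in neuron-like nuclei. All 8 genes were thus seen more often in cluster 6 than in neuron-like nuclei, with Fyn the least apart as a ratio, though as a difference of shares Gpr17 was the least apart. In 1381 immune-like nuclei, with a median of 2617.5 UMIs, the shares were 4.06% for Bcas1, 1.09% for Enpp6, 0.797% for 9630013A20Rik, 0.579% for Moxd1, 0.0724% for Gpr17 and for Bmp4, and 10.6% for Fyn. Itpr2 was seen in 35.8% of them, more often than in cluster 6. In OPC-like nuclei Gpr17 was seen in 18.8% and Itpr2 in 51.0% of 96 nuclei, and in those of Foxr2 alone Gpr17 was seen in 3.55% of 169. In oligodendrocyte-like nuclei Bcas1 was seen in 59.5% in Foxr2 p53LOF and 38.5% in Foxr2 alone, and Enpp6 in 11.7% and 8.63%. Thinning left out 914 of these nuclei in Foxr2 alone and 14 in Foxr2 p53LOF, so the 2 libraries' shares rest on unlike selections.

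Nuclei with several of the genes were mostly in cluster 6, which is a description, since that cluster was chosen for their summed level, and whether the genes met in a nucleus more often than their single shares give was not tested. At 1000 UMIs, 4 or more of the 8 were seen in 164 of 8225 Foxr2 p53LOF nuclei, of which 152 (92.7%) were in cluster 6, 6 were OPC-like and 4 were in cluster 3, and in 2 of 7232 Foxr2 alone nuclei. Among these 164 nuclei, 10 also had a Hmga2 UMI and 5 a Mki67 UMI, while over all cluster 6 nuclei Hmga2 was seen in 34.3% and Mki67 in 6.42%. Hmga2 was seen in 0 of the 7232 Foxr2 alone nuclei, where 3 nuclei, the floor used here, would be 0.0415%. With all UMIs it was seen in 11 of 8316 (0.132%). Mki67 was seen in 19 of the 7232 (0.263%), so co-detection was described in Foxr2 p53LOF. At 5000 UMIs, a depth added after the data had been seen, 56.6% of 830 cluster 6 nuclei held 4 or more of the 8 genes, against 3.72% of cluster 3 and 0.154% of neuron-like nuclei, and 4 nuclei of cluster 6 held all 8.

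Within cluster 6, Hmga2 was seen less often in nuclei with 6 of the 8 genes and more often in nuclei with Moxd1. At 1000 UMIs the share with Hmga2 was lower in nuclei with than without each of 7 genes, 11.5% against 35.9% for Bmp4 and 18.5% against 40.3% for Enpp6, and higher for Moxd1, 47.2% against 32.6%. With all UMIs the order held for these genes except Fyn, which turned (64.1% with and 53.1% without, with overlapping intervals). At 5000 UMIs, Hmga2 was seen in 46.7% of nuclei with Enpp6 and 69.5% of those without, in 22.2% (95% Clopper-Pearson interval 15.7 to 29.9) with Bmp4 and 62.0% (58.2 to 65.6) without, and in 23.3% (14.2 to 34.6) with Gpr17 and 58.1% (54.5 to 61.7) without. The same order held for 9630013A20Rik (37.7% and 69.0%), Itpr2 (40.9% and 67.7%) and Bcas1 (52.7% and 70.2%), while for Fyn the 2 shares, 54.0% and 59.9%, had overlapping intervals. Moxd1 went the other way, with Hmga2 in 65.4% (59.6 to 70.9) of nuclei with Moxd1 and 49.5% (45.2 to 53.8) of those without. In cluster 3, whose Hmga2 level was alike, Hmga2 was seen in 67.3% of nuclei with Enpp6 and 74.8% without, and in 72.4% with Bcas1 and 76.2% without, with overlapping intervals for all 8 genes. Few nuclei of cluster 3 held Bmp4 (7) or Gpr17 (4), so for these 2 genes it gave no useful comparison.

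**Figure D3:**
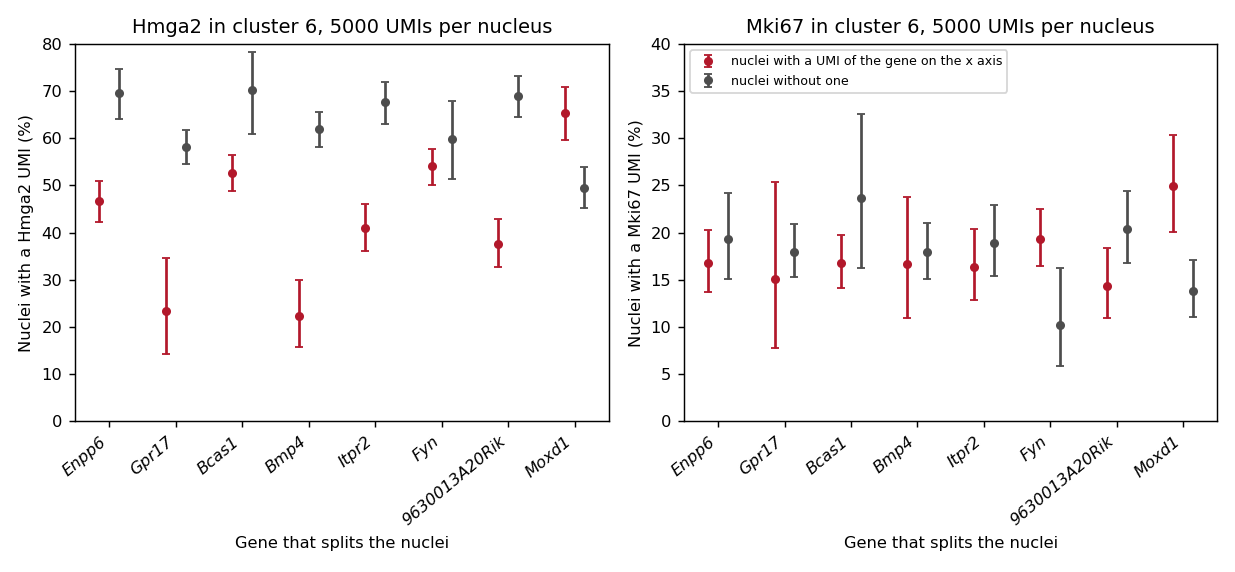
Share of cluster 6 nuclei with a UMI of Hmga2 (left) and of Mki67 (right) among nuclei with and without each gene on the x axis, each nucleus thinned to 5000 UMIs, with 95% Clopper-Pearson intervals that cover counting error only. Hmga2 is rarer in nuclei with Enpp6, Gpr17, Bcas1, Bmp4, Itpr2 and 9630013A20Rik and more frequent in nuclei with Moxd1, which also have the larger share with Mki67 (24.9% against 13.9%).

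Grouped by their Hmga2 UMIs out of 5000, the 830 nuclei of cluster 6 showed graded levels. From 0 to 1 Hmga2 UMI (465 nuclei), through 2 to 4 (110 nuclei) and 5 to 8 (60 nuclei), to 9 or more (195 nuclei), Enpp6 was at 591, 287, 157 and 169 CPM and 9630013A20Rik at 863, 258, 190 and 123 CPM. Itpr2 was at 801, 249, 193 and 84.1 CPM over the same groups. Bmp4 was at 99.4 and 41.8 CPM in the first 2 groups, at 0 UMIs in the next and at 4.10 CPM in the last, and Gpr17 was at 36.1 and 25.5 CPM, at 0 UMIs and at 1.03 CPM (1 UMI). Bmp4 and Gpr17 were thus nearly absent where Hmga2 was high. Bcas1 (2032, 1196, 1520 and 1095 CPM) and Fyn (770, 416, 453 and 395 CPM) stepped down less far, and Moxd1 stood at 134, 305, 273 and 241 CPM, lowest where Hmga2 was lowest. Mki67 showed no such order, at 87.3 and 85.5 CPM in the first 2 groups, with an interval of 13.7 to 56.9 CPM in the next and of 63.2 to 99.8 CPM in the last. GFP from the vectors was at 542, 838, 1093 and 736 CPM over the same groups and the myelin gene Mbp at 3330, 1933, 1083 and 925 CPM; their part in the order was not tested. In cluster 3 the first and last groups had Enpp6 at 14.9 and 7.11 CPM, with overlapping intervals, and Bcas1 at 203 and 211 CPM.

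**Figure D4:**
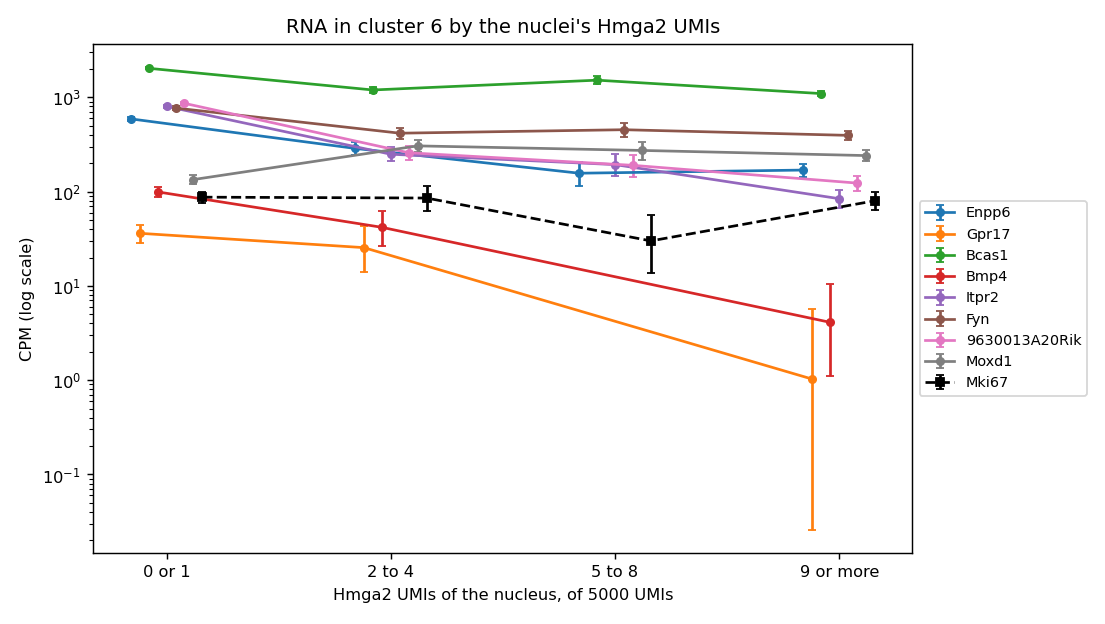
RNA level (CPM, log axis) of each gene and Mki67 in cluster 6 nuclei grouped by Hmga2 UMIs of 5000 (0 or 1, 2 to 4, 5 to 8, and 9 or more), with exact 95% Poisson intervals that cover counting error only. Gpr17 and Bmp4 have 0 UMIs at 5 to 8 Hmga2 UMIs and have no point there, where the line joins its neighbours. Enpp6, Itpr2 and 9630013A20Rik step down from the first group, and Moxd1 is lowest at 0 or 1 Hmga2 UMI.

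Splits of cluster 6 by a member showed which genes shared nuclei. In the 73 nuclei with a Gpr17 UMI, Itpr2 was at 2175 CPM against 355 CPM in the 757 without, 9630013A20Rik at 1726 against 448 CPM, Enpp6 at 1082 against 356 CPM and Bmp4 at 205 against 48.3 CPM. Bcas1 was at 3685 against 1469 CPM and Fyn at 1789 against 499 CPM. Hmga2 was at 156 against 1186 CPM and Pdgfra at 82.2 against 169 CPM, while Moxd1 was at 115 against 199 CPM. The Gpr17 nuclei thus held more of the other members apart from Moxd1, and less Hmga2. In the 289 nuclei with a Moxd1 UMI, against the 541 without, Enpp6 was at 282 against 494 CPM, Bmp4 at 30.4 against 79.1 CPM and 9630013A20Rik at 322 against 688 CPM. The proteoglycan gene Cspg4, of OPCs, was at 48.4 against 9.98 CPM in them, the myelin gene Mog at 65.1 against 179 CPM, Mki67 at 124 against 58.4 CPM and Top2a, a gene of dividing cells, at 210 against 95.4 CPM. Pdgfra, at 172 against 155 CPM, had an interval of the ratio that included no difference, so the 2 OPC genes measured in this split did not show the same. Mbp (1700 against 2801 CPM) and Mag (119 against 248 CPM), also myelin genes, were lower with Moxd1, as Mog was.

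For Mki67, co-detection within cluster 6 showed smaller differences. At 1000 UMIs its share was lower in nuclei with than without 7 of the genes, all but Fyn, with overlapping intervals for all 8. With all UMIs 4 of these 7 turned, Moxd1 (33.3% against 16.0%), Enpp6 (25.4% against 20.1%), Itpr2 (25.8% against 21.2%) and, with nearly equal shares, 9630013A20Rik. At 5000 UMIs it was seen in 16.8% of nuclei with Enpp6 and 19.3% without, in 16.7% with Bmp4 and 17.9% without, and in 15.1% with Gpr17 and 17.97% without, all with overlapping intervals. It was more frequent with Moxd1 (24.9%, 20.03 to 30.32, against 13.9%, 11.1 to 17.1) and with Fyn (19.3%, 16.4 to 22.5, against 10.2%, 5.82 to 16.3). Nuclei with Mki67 or Top2a (231) had lower levels than the 599 without of Enpp6 (281 against 474 CPM), Itpr2 (268 against 611 CPM), 9630013A20Rik (294 against 663 CPM), Bcas1 (1095 against 1884 CPM) and Bmp4 (37.2 against 71.8 CPM), and a higher level of Moxd1 (274 against 161 CPM). Gpr17 was at 15.6 against 27.0 CPM and Fyn at 490 against 659 CPM in the same split. A single UMI does not show that a nucleus was dividing: at 5000 UMIs, 2.16% of 1948 neuron-like nuclei had Mki67 and 3.44% had Top2a.

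Over the 26 sets made by splitting clusters of at least 50 nuclei by library (14 and 12), the genes most like each member were named by the Pearson correlation of log2(CPM + 1) among 15609 genes. These are descriptions, since clusters of 1 library share its depth. Enpp6 was closest to Adamts4 (r = 0.93) and the myelin gene Cldn11 (0.93), Bcas1 to Gjc3 (0.96), Sox10 (0.96) and Olig2 (0.95), Gpr17 to Pdgfra (0.90), Mmp2 (0.88) and Cav1 (0.88), and Itpr2 to Tns3 (0.95), Maml2 (0.94) and Pdlim5 (0.94). For Bmp4 (Clca3a1, 0.81), Moxd1 (Rgs16, 0.81), Fyn (Sh3rf1, 0.80) and 9630013A20Rik (Aebp2, 0.75) the closest genes were less like them. None of the 3 closest genes of any member was another member. Among pairs of members, Enpp6 and Bcas1 were most alike (r = 0.80) and Gpr17 and Moxd1 least (0.18).

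Peaks of open chromatin were called by the authors in each library alone. Within 1000 bases of the start site, Enpp6, Gpr17, Itpr2 and Moxd1 had 1 peak and Fyn had 2 in each of the 3 libraries, and Bcas1 had none in any. Bmp4 had a peak over its start site in Foxr2 p53LOF (chr14:46390144-46390992) and in Foxr2 alone replicate 2 and none in Foxr2 alone replicate 1. The start site of 9630013A20Rik lay in a peak in Foxr2 p53LOF and Foxr2 alone replicate 2, whereas in Foxr2 alone replicate 1 the only peak lay upstream of it. Hmga2 had a peak near its start site only in Foxr2 p53LOF. A peak list depends on which nuclei and how many fragments a library holds, so an absent peak shows only that none was called.

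Accessibility, in fragments in the promoter peaks per 1000000 fragments in peaks, was compared between sets of nuclei within Foxr2 p53LOF. At Bmp4 it was 12.8 (10.2 to 15.9) in cluster 6, on 85 fragments, 0.122 in oligodendrocyte-like nuclei and 0.692 in cluster 3, and the single fragment of the OPC-like nuclei gave 3.32 with an interval up to 18.5. At Enpp6 it was 13.6 (10.9 to 16.7) in cluster 6, 7.84 (5.36 to 11.1) in oligodendrocyte-like nuclei and 2.54 in cluster 3, with 0 fragments in OPC-like nuclei. Both promoters were thus open in cluster 6 and much less so in cluster 3. The next levels overlapped those of cluster 6. They were 11.8 (5.77 to 21.4) in cluster 15 at Enpp6 and 11.8 (1.43 to 42.7) in cluster 24 at Bmp4. At Gpr17 it was highest in OPC-like nuclei, 89.6 (59.1 to 130), then 46.0 (41.0 to 51.5) in cluster 6 and 37.5 (31.8 to 43.9) in oligodendrocyte-like nuclei, and 1.76 in neuron-like nuclei. The Gpr17 promoter was thus nearly as open in oligodendrocyte-like nuclei as in cluster 6, with RNA there at 2.93 against 21.6 CPM. Lims2, which overlaps Gpr17 on the other strand, was at 27.1 CPM in oligodendrocyte-like nuclei against 7.26 CPM in cluster 6. Its part in the accessibility at Gpr17 was not tested. At Moxd1 it was 15.1 (8.17 to 25.6) in cluster 15, an unnamed cluster led by Pomc and Gbp2 with Moxd1 RNA at 38.9 CPM, 12.4 (9.84 to 15.3) in cluster 6, 7.46 in cluster 3 and 1.47 in oligodendrocyte-like nuclei, and in Foxr2 alone it was highest in the Sst cluster 14, at 12.8, which was also that library's highest for Moxd1 RNA. At 9630013A20Rik, 2 peaks were summed, of which 1 covered the start site. Their accessibility was 19.8 in cluster 6 and 21.4 in cluster 17, neuron-like, whose RNA was at 2.04 CPM. Of the members with a promoter peak, 9630013A20Rik had the lowest correlation of RNA and accessibility over the 14 Foxr2 p53LOF clusters (r = 0.24), and Itpr2 had the highest (0.82). At Fyn accessibility was 73.0 in cluster 6 and 72.4 in oligodendrocyte-like nuclei, where its RNA differed 4.28-fold.

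In cluster 6 against oligodendrocyte-like nuclei, 2 of the 7 promoters (Bmp4 and Moxd1) were at least 2-fold more accessible and 0 less, where 20.9% of all 18023 promoters compared were more accessible and 3.16% less. Against cluster 3, 4 of the 7 were (Enpp6, Gpr17, Bmp4 and 9630013A20Rik), where 4.07% of 18197 promoters were more and 3.22% less accessible. The RNA of 7 of the 8 genes was 2-fold higher in cluster 6 in either of these comparisons, so fewer members passed 2-fold at the promoter than in RNA. Over all genes the shares higher in RNA were also the larger, 26.2% against oligodendrocyte-like nuclei and 9.43% against cluster 3. Against OPC-like nuclei, 4 promoters (Enpp6, Bmp4, 9630013A20Rik and Moxd1) were more accessible, each on at most 2 OPC-like fragments, and 0 less, where 18.9% of 17794 promoters were more accessible and 7.73% less. Against immune-like nuclei 6 of the 7 were, all but Itpr2, where 26.0% of 18170 promoters were more accessible and 8.34% less. Against neuron-like nuclei 6 of the 7 were, all but Fyn, where 9.61% of 18419 promoters were more accessible and 10.2% less.

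**Figure D5:**
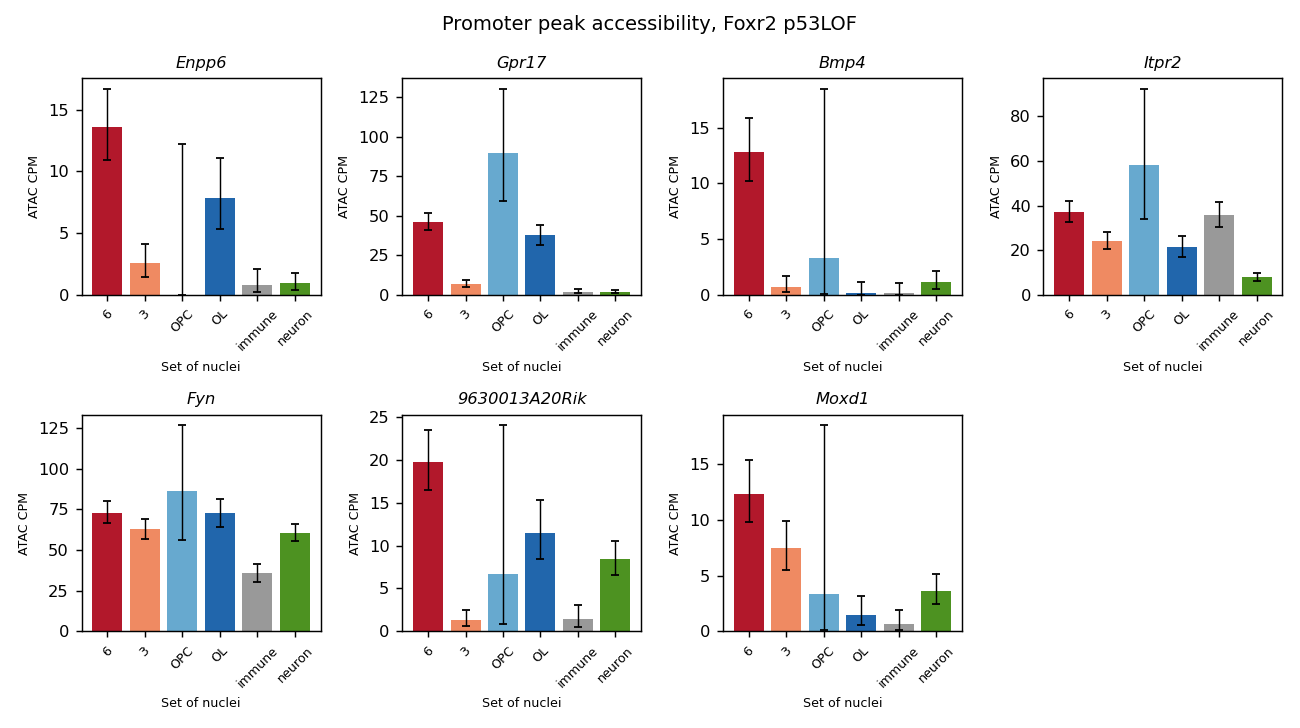
Accessibility of the promoter peaks (ATAC CPM: fragments per 1000000 fragments in peaks) of the 7 genes with a peak, in sets of Foxr2 p53LOF nuclei (6 and 3: clusters 6 and 3; OL: oligodendrocyte-like), with exact 95% Poisson intervals that cover counting error only. Enpp6, Bmp4, 9630013A20Rik and Moxd1 are highest in cluster 6 and Gpr17, Itpr2 and Fyn in OPC-like nuclei among the sets drawn.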

How the data were processed

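For the 2 libraries whose counts were analysed, the authors deposited counts of UMIs per gene and counts of transposition events per peak, made with Cell Ranger ARC 2.0.0 under default parameters on mm10 with the vector sequences added, with nuclei and peaks called in each library alone; the counts were used as deposited, with no further normalization by the authors. From these counts, nuclei with at most 5% mitochondrial UMIs, at least 400 genes and at least 400 fragments (peak counts divided by 2, since 80.7% and 82.9% of entries were even) were kept, and 353 (4.05%) and 540 (6.10%) doublets called by the Scrublet method, at an expected 8%, were removed. Clustering used 2000 variable genes without the 8 members, 30 components, 20 neighbours and Leiden resolution 0.5, with seed 100. Clusters were called X-like from marker lists, with thresholds set after the data had been seen. No cluster was committed precursor-like, so comparisons planned for one used cluster 6. Levels (CPM) are UMIs summed over a set of nuclei and scaled to a total of 1000000. A gene was past 2-fold where log2 of the ratio of CPM + 1 was at least 1, with 10 CPM in either set. Where a set had 0 UMIs, the lower limit of the 95% interval of the ratio was given, or the upper limit of the level in that set. Beside a share of 0 nuclei, a floor of 3 counts was given as a share. Promoter peaks lay within 1000 bases of a start site, and a promoter was compared with at least 10 fragments in both sets together. Shares of nuclei were compared after thinning each nucleus to 1000 or 5000 UMIs. Intervals are 95% (Poisson, Clopper-Pearson, or conditional for ratios). The genes named were the 8 members, Hmga2, Mki67, Top2a, set lists of lineage and BMP genes, the 3 genes most like each member and the 10 leading genes of a cluster, together with the vector, p53 and overlapping genes. The members and lists were chosen with earlier results of these data known. Scripts were tested on simulated data. Alternatives were other filters, clusterings, depths, scalings, pseudocounts and windows. Python 3.11.15, numpy 2.4.6, scipy 1.17.1, pandas 2.3.3, scanpy 1.11.5, scikit-learn 1.9.0, leidenalg 0.10.2, igraph 0.11.9 and matplotlib 3.10.9 were used.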

Additional observations from a re-analysis of the deposited data

How the results depend on the processing

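No paired analysis was possible because the counts of 1 library per genotype were analysed here, which also leaves no replicate to leave out. Gpr17 and Bmp4 had the fewest UMIs of the 8 genes, so depth limits their levels. They had 351 and 695 in Foxr2 p53LOF and 19 and 18 in Foxr2 alone. In every alternative clustering (minimums of 1000 genes and fragments, limits on peak counts, doublets kept, Leiden resolution 1.0, members allowed among the variable genes), 5 of the 8 genes were highest in the counterpart of cluster 6, and each gene's level there stayed within 0.85 to 1.19 times its reported value. The counterpart was the cluster that held most nuclei of cluster 6, and it shared 706 to 929 nuclei with it. These levels thus rest largely on the same nuclei. The ratios between libraries past 2-fold numbered 8 to 10 under those clusterings, beside 9 as reported, and 15 with UMIs per nucleus, a scale that keeps the difference in depth. The share of cluster 6 nuclei with Enpp6, 27.7% at 1000 UMIs, was 73.9% with no thinning, 41.6% at 2000 UMIs and 63.3% at 5000 UMIs, the last added after the data had been seen. The genes whose nuclei held Mki67 less often numbered 7 at 1000 UMIs and 3 with no thinning, so the direction turned for 4 genes (Enpp6, Itpr2, 9630013A20Rik and Moxd1), and for Hmga2 that of Fyn turned; the cause was not tested. Promoter peaks highest in cluster 6 rose from 2 to 7 when counted per nucleus. Genes past 2-fold between OPC-like nuclei numbered 3746, and 6258 with a 3 CPM minimum, with 31.6% and 41.2% of them higher in Foxr2 p53LOF. Of the 24 most similar genes, 11 were also named by Spearman's rho. With minimums of 1000, the ratio of Moxd1 between astrocyte-like nuclei fell to 0.46 (log2). The caller then marked 13 doublets (0.237%) in Foxr2 alone, beside 540 (6.10%) in the main setting. Why it marked so few was not tested, and doublets may remain there. With doublets kept, 4.44% of the counterpart of cluster 6 were called doublets, beside 4.05% of the library. Of the levels, ratios between libraries and shares in cluster 6 of single genes, 136 stayed on the same side of 2-fold or within their interval. Another 43 moved, 6 went past 2-fold, 1 fell below it, and 0 of the ratios reported past 2-fold changed sign. Some ratios within 2-fold did change sign. That of Bcas1 in OPC-like nuclei went from −0.25 to 0.10 (log2) with UMIs per nucleus.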
